A study of Mus musculus with 9 samples.

Results

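The 7 sarcomeric myosin heavy chain genes Myh4, Myh1, Myh2, Myh7, Myh3, Myh8 and Myh7b were described in the tibialis anterior (TA), a fast muscle of the front of the lower leg. They were taken by gene symbol and are 7 of the 14300 protein-coding genes listed in both deposited tables. RNA was measured by polyA-selected RNA sequencing in male C57BL/6J mice, an inbred strain, in 3 groups of 3 libraries each. Control mice kept their testes, ORX mice were orchiectomised (testes taken out), and ORX+DHT mice had the same surgery and were treated with the potent androgen dihydrotestosterone. All were sampled 4 weeks after treatment, and no engineered allele is named in any group. The columns of the control mice are headed sham. Age, dose and route of the androgen are not given in the sources used here. The labels call the libraries biological replicates without saying how many mice each holds. The comparisons ask how these transcripts differ when androgen is removed and when it is supplied again. ORX versus control and ORX+DHT versus ORX share the 3 ORX libraries, and ORX+DHT versus control shares libraries with both.

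Myosin heavy chain is the motor of the thick filament: it binds actin, splits ATP and sets much of the speed at which a fibre shortens. An adult limb fibre is named by the heavy chain it makes most of. Myh7 marks slow type I fibres, Myh2 the fast oxidative type IIa, Myh1 the intermediate type IIx and Myh4 the fastest and most glycolytic type IIb. Myh3 and Myh8 are the embryonic and perinatal chains, which appear in developing and regenerating fibres. Myh7b is a divergent slow-tonic chain.

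In the GRCm38 genome (GENCODE M21), 5 of the 7 genes lie head to tail on the plus strand of chromosome 11. Myh3 spans bases 67078300 to 67102291, Myh2 67171027 to 67197517, Myh1 67200052 to 67224575, Myh4 67238029 to 67260446 and Myh8 67277124 to 67308634. Myh7 lies on the minus strand of chromosome 14 (54970684 to 54994626), and Myh7b on the plus strand of chromosome 2 (155611212 to 155634307). Because the main result concerns Myh1 beside its neighbours, the bases before the start of the 3 abundant genes are shown, 5′ to 3′ on the plus strand, from RefSeq on GRCm38.p6. Of the 250 bases before each RefSeq start they cover chr11:67170777-67171026 for Myh2, chr11:67199852-67200051 for Myh1 and chr11:67237562-67237811 for Myh4. The RefSeq start of Myh1, 67200102, lies 50 bases inside the GENCODE gene, and those 50 bases are not printed. Capitals mark a run of 20 bases that all 3 windows share.
Myh2: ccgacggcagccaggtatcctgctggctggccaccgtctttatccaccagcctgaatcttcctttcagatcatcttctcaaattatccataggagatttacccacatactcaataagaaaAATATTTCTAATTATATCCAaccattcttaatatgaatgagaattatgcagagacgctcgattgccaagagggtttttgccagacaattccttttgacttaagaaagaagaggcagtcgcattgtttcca
Myh1: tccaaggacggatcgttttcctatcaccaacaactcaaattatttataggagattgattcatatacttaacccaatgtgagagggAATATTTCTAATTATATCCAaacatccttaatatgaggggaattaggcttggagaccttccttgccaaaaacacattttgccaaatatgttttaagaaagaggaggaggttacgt
Myh4: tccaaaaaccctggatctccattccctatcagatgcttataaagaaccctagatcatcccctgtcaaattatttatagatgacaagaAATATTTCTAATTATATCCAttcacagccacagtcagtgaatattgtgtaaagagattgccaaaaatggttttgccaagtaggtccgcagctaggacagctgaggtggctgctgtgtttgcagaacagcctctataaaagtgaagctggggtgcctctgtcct

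The shared run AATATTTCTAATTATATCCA begins 130 bases before the start of Myh2, 165 before that of Myh1 and 163 before that of Myh4. Searched on both strands, it was in 3 of 32851 mouse promoter windows of that length (0.00913%), which are these 3. A run of 15 bases, TCAAATTATTTATAG, was likewise in 3 windows, those of Myh1, Myh4 and Myh8. The A/T-rich box TATAAA, in 12.4% of all windows, stood 32 bases before the RefSeq start of Myh1, within the bases not printed, and 31 before that of Myh4, and was not in these letters in the Myh2 window. It also matched at 208 bases before the start of Myh1 and at 213 and 179 before that of Myh4, and the matches at 208 and 179, on the minus strand, lie within the 15-base run. AGAACA, one arm of the element that androgen and other steroid receptors bind, was in 16.1% of all windows. Of the 7 genes it matched only Myh4, at 42 bases before the start. These matches are descriptions of letters and no binding was measured. RefSeq places the start of Myh4 at 67237812, upstream of the GENCODE gene start given above.

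The 3 fast adult chains are close copies of each other, which bears on how reads are shared between them. Aligned transcripts of Myh1 and Myh2 were 89.9% identical with a longest identical run of 268 bases. Myh1 and Myh4 were 89.3% identical with a longest run of 161 bases, and Myh2 and Myh4 87.1% identical with a longest run of 146. Of all 100-base windows, 9.73% of those in Myh1, 9.17% in Myh2 and 3.85% in Myh4 also occurred in another heavy chain transcript, against none in Myh7b. Myh7 was 76.9% to 77.6% identical to Myh1, Myh2 and Myh4. It shared no 100-base window with the other 6 members, and 11.2% of its windows with heavy chains outside the 7. Read length and the handling of multiply placed reads are not given in the sources used here. Values of Myh1, Myh2 and Myh4 are therefore uncertain by what such reads could move between them. The antisense gene Myhas overlaps 13320 bases of Myh1 and 9430073C21Rik overlaps 1838 bases of Myh2. The kit keeps the strand, but whether counting used it is not stated.

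Before the results, 1 library needs naming. Control replicate 1 was the highest of the 9 libraries for 32.4% of 3795 genes with a mean of at least 50 normalised counts and the lowest for 30.0%, where no other library exceeded 11.1% or 15.8%. Its actin gene Actc1 stood at 6967 against 445 to 1851 elsewhere, and its fast troponin Tnni2 at 23692 against 8895 to 13537. Recovered depth was 1340209 to 1682235 reads per library. Markers of skeletal muscle were high throughout: Acta1, Ckm, Mb, Des and Myot together gave 72174 to 127638 normalised counts per library. Markers of smooth muscle summed to 102 to 181, with Myocd at 0 or not listed, and those of muscle spindles to 14.8 to 26.3.

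The TA was a type IIb muscle in all 9 libraries, with Myh4 by far the highest heavy chain. Together the 7 genes took 6.17% to 8.74% of all recovered reads for control, 6.78% to 8.27% for ORX and 7.22% to 7.72% for ORX+DHT libraries. Levels are given as normalised counts, which are read counts divided by a scaling factor per library, on 1 scale for all 9. To compare genes they were divided by transcript length. In control muscle Myh4 stood at 15389 ± 1937 normalised counts per kilobase (SD, n = 3), Myh1 at 4218 ± 495 and Myh2 at 500.2 ± 341. The perinatal chain Myh8 followed at 6.25 ± 0.947, the embryonic chain Myh3 at 2.66 ± 0.537, Myh7b at 1.43 ± 0.0161 and the slow chain Myh7 at 0.756 ± 0.182.

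This order of levels per kilobase was the same in all 3 groups. Neighbours in it did not overlap across the libraries of a group, with 2 exceptions. Among ORX libraries Myh8, at 4.44 to 7.53 per kilobase, overlapped with Myh3, at 2.74 to 5.05. Among ORX+DHT libraries Myh3, at 2.46 to 4.17, overlapped with Myh7b, at 0.641 to 2.82. The step from Myh2 to Myh8 was the widest, and it divides the 3 adult fast chains from the 4 chains that are scarce in this muscle. The slow chain was at 1 to 12 reads per library, so type I transcript was close to the limit of what this depth can show.

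**Figure D1:**
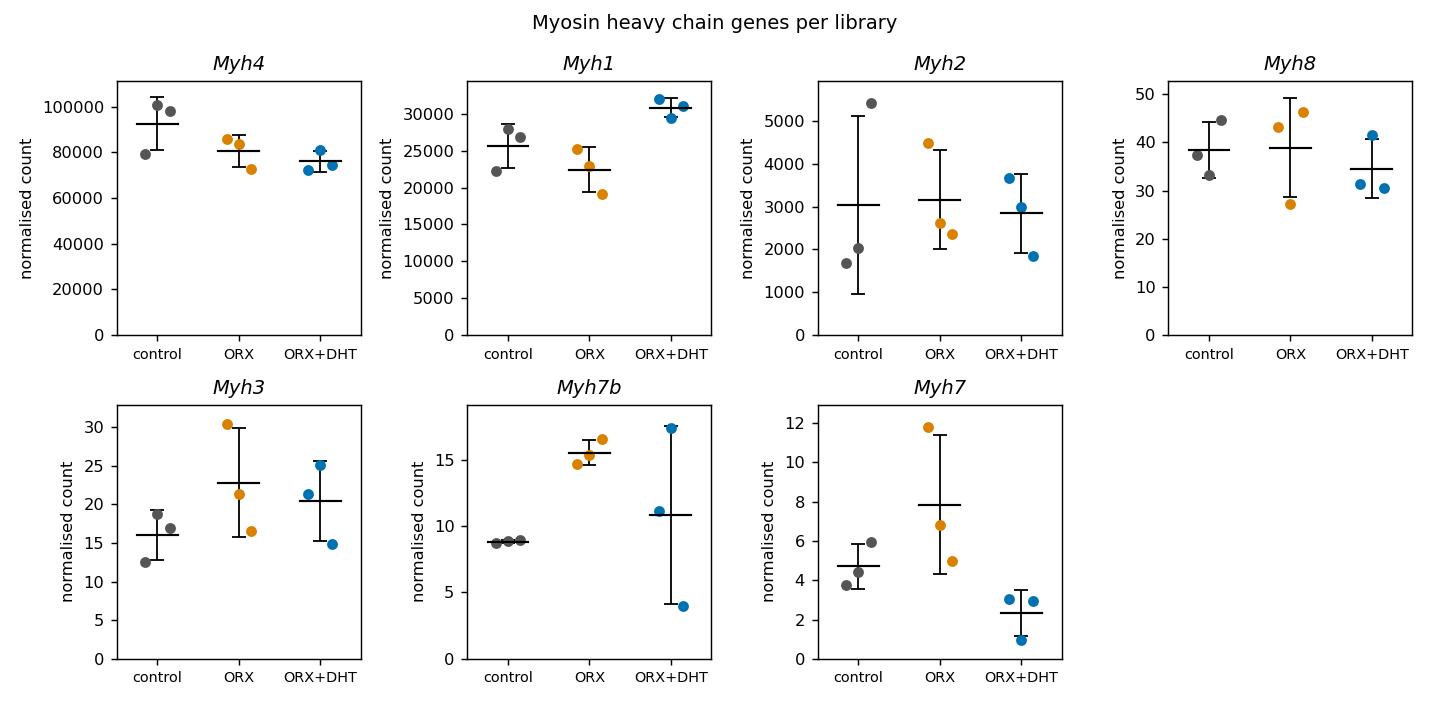
Normalised counts of the 7 heavy chain genes (y axis, linear, from 0) in control, ORX and ORX+DHT libraries. Points are libraries, horizontal lines are means and bars are SD (n = 3); the 3 ORX+DHT libraries lie above the other 6 for Myh1 and below them for Myh7, while the groups overlap for Myh2, Myh8 and Myh3.

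Myh1, the type IIx chain, was higher in ORX+DHT than in ORX muscle, and it was the 1 member that passed the test in any comparison. Its normalised counts were 22233, 27899 and 26817 for control, 25175, 22901 and 19154 for ORX and 32078, 29487 and 31006 for ORX+DHT libraries. All 3 ORX+DHT libraries lay above all 6 others, while control and ORX overlapped. Group means were 25650 ± 3008, 22410 ± 3040 and 30857 ± 1302 (SD, n = 3 each). The log2 fold change of ORX+DHT versus ORX was 0.47 (limma: SE 0.098, adjusted p = 0.00755), with all 3 libraries higher. Of the 8770 genes tested there, 4.08% were called and 2.38% were called higher, and 1 of the 6 members tested was. Groups did not overlap for 19.5% of tested genes, and for 1 of the 6 members. Against control, Myh1 had a log2 fold change of 0.27 in ORX+DHT (limma: SE 0.18, adjusted p = 0.752) and of -0.20 in ORX (limma: SE 0.19, adjusted p = 0.820).

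The call on Myh1 held when any of the 6 libraries was left out, with limma adjusted p from 0.000984 to 0.0484, and in count tests on the recovered reads (edgeR adjusted p = 0.00375, DESeq2 adjusted p = 0.000729). It was lost with quantile normalisation (log2 fold change 0.22, limma adjusted p = 0.159) and with all 9 libraries in 1 fit (log2 fold change 0.47, limma adjusted p = 0.265).

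Myh4, the type IIb chain, did not pass the test in any comparison. Its normalised counts were 79195, 100467 and 98074 for control, 85595, 83665 and 72718 for ORX and 72361, 81124 and 74550 for ORX+DHT libraries. The 3 groups overlapped, with means of 92578 ± 11652, 80660 ± 6945 and 76012 ± 4561. The log2 fold change was -0.083 for ORX+DHT versus ORX (limma: SE 0.097, adjusted p = 0.767) and -0.20 for ORX versus control (limma: SE 0.21, adjusted p = 0.838). For ORX+DHT versus control it was -0.28 (limma: SE 0.21, adjusted p = 0.781). Without control replicate 1 the last became -0.39 (limma adjusted p = 0.0616). Under quantile normalisation the differences from control changed sign, to 0.21 in ORX and 0.14 in ORX+DHT. That method sets each value by its rank in the library, so it cannot measure a shift in a gene that keeps its rank. For ORX+DHT versus ORX it gave -3.92e-16. In control replicate 1 Acta1, at 83697, ranked above Myh4, which it did in no other library.

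The balance of the fast chains can also be read within a library, where no scaling between libraries enters. Myh1 as a percentage of Myh4 was 28.1, 27.8 and 27.3 for control, 29.4, 27.4 and 26.3 for ORX and 44.3, 36.3 and 41.6 for ORX+DHT libraries. The 3 ORX+DHT libraries lay above the other 6, which ranged from 26.3% to 29.4%. On the log2 scale the ratio of Myh1 to Myh4 averaged -1.85 ± 0.019 for control, -1.85 ± 0.081 for ORX and -1.30 ± 0.15 for ORX+DHT (SD, n = 3). It was higher in ORX+DHT by 0.55 against either group, and ORX and control differed by -0.0025. An exact permutation test over the 3 groups gave p = 0.0357, or 0.179 after Benjamini-Hochberg adjustment over the 5 members compared with Myh4.

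**Figure D2:**
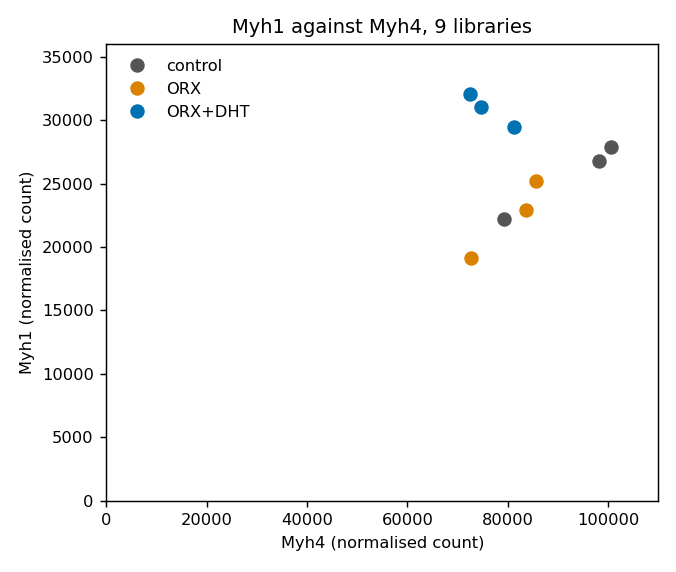
Myh1 against Myh4, both in normalised counts on linear axes from 0, with 1 point per library and colours for the groups. Control and ORX libraries lie along 1 line with Myh1 at 26.3% to 29.4% of Myh4, and the 3 ORX+DHT libraries lie above it at 36.3% to 44.3%.

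As a share of the summed count of the 7 genes, Myh4 made up 76.8, 77.0 and 75.2 for control, 74.2, 76.6 and 77.1 for ORX and 66.9, 71.4 and 69.4 for ORX+DHT libraries (all in percent). Its share averaged 76.3% ± 0.976, 76.0% ± 1.54 and 69.2% ± 2.24 (SD, n = 3). The ORX+DHT libraries lay below all 6 others. The share of Myh1 was 21.6, 21.4 and 20.6 for control, 21.8, 21.0 and 20.3 for ORX and 29.7, 25.9 and 28.9 for ORX+DHT libraries (in percent), averaging 21.2% ± 0.528, 21.0% ± 0.761 and 28.1% ± 1.95. ORX+DHT exceeded ORX by 7.12 percentage points in Myh1 and was lower by a difference of -6.75 points in Myh4. Myh1 and Myh4 make up most of the sum, so their shares move against each other and are not separate results. Against control the differences were 6.98 and -7.12 points. ORX and control differed by -0.138 points in Myh1 and -0.375 in Myh4, each less than the SD within either group.

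The two-sided exact permutation test over the 3 groups gave p = 0.0321 for the share of Myh1 and p = 0.025 for that of Myh4. Both were 0.075 after Benjamini-Hochberg adjustment over the 7 members, so neither passed at 0.05. With only the 4 adult chains in the sum and in the adjustment, both were 0.0429, while the unadjusted p-values were unchanged. Without ORX replicate 1 the adjusted p was 0.0375 for Myh1 and 0.0667 for Myh4. Leaving out any other library gave adjusted p from 0.0563 to 0.0917 for both. With the replicate number as a block the exact permutation p was 0.0833 for both, or 0.146 adjusted. Between pairs of groups the exact permutation test of 3 against 3 cannot go below 0.10, and that was the p for both shares in ORX+DHT versus ORX and versus control.

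**Figure D3:**
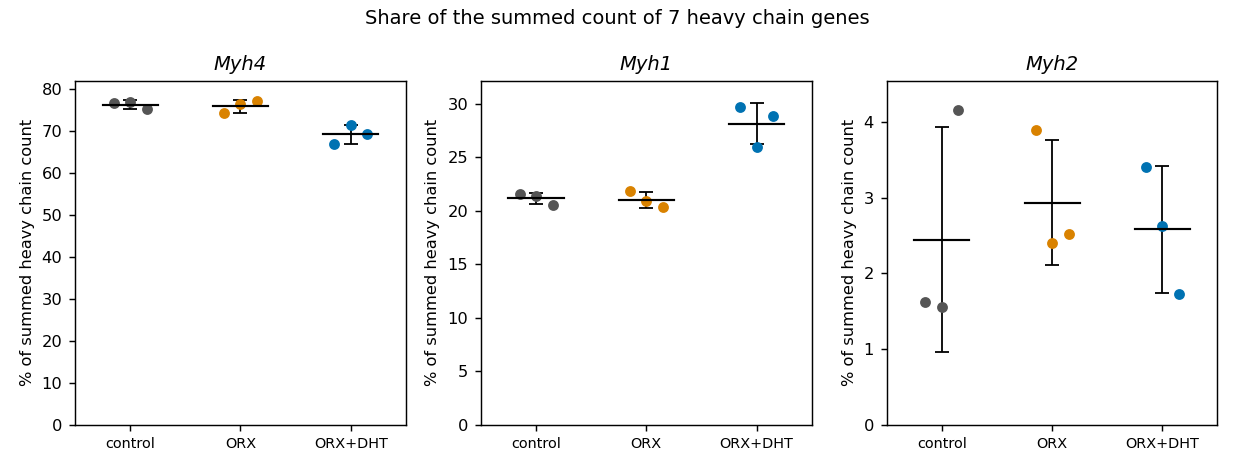
Share of Myh4, Myh1 and Myh2 in the summed normalised count of the 7 heavy chain genes (y axis, percent, from 0, scaled per panel) by group. Points are libraries, lines are means and bars are SD (n = 3); ORX+DHT libraries sit lowest for Myh4 at 66.9% to 71.4% and highest for Myh1 at 25.9% to 29.7%, and the groups overlap for Myh2.

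Myh2, the type IIa chain, varied more between libraries of a group than between groups. Its normalised counts were 1676, 2023 and 5430 for control, 4487, 2624 and 2372 for ORX and 3681, 2986 and 1856 for ORX+DHT libraries. Control replicate 3 was the highest of all 9 and control replicate 1 the lowest, so that the control group spanned the whole range. Its share of the sum was 1.62, 1.55 and 4.16 for control, 3.89, 2.40 and 2.51 for ORX and 3.40, 2.63 and 1.73 for ORX+DHT libraries (in percent). The log2 fold change was 0.20 for ORX versus control (limma: SE 0.38, adjusted p = 0.919), -0.15 for ORX+DHT versus ORX (limma: SE 0.21, adjusted p = 0.812) and 0.049 for ORX+DHT versus control (limma: SE 0.38, adjusted p = 0.977). Without control replicate 1 both differences from control changed sign, to -0.13 in ORX and -0.28 in ORX+DHT. With SEs of this size, shifts in Myh2 smaller than its spread were not detectable here.

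Myh7, the slow type I chain, was read at so low a level that it fell under the minimum mean of 10 normalised counts in each comparison. It rested on 3, 4 and 6 reads for control, 12, 8 and 6 for ORX and 3, 1 and 3 for ORX+DHT libraries. Summed over a group these are 13 reads (95% Poisson interval 6.92 to 22.2), 26 (17.0 to 38.1) and 7 (2.81 to 14.4), and the intervals cover counting error only. Its normalised counts were 3.75, 4.42 and 5.96 for control, 11.8, 6.82 and 4.96 for ORX and 3.04, 0.967 and 2.96 for ORX+DHT libraries. ORX+DHT libraries lay below all others, and control and ORX overlapped. Its share of the sum was 0.00386% ± 0.000623 for control, 0.00724% ± 0.00262 for ORX and 0.00214% ± 0.00112 for ORX+DHT (SD, n = 3), with no overlap between any 2 groups.

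The 3-group exact permutation test on the Myh7 share gave p = 0.00357, the smallest it can give, and 0.025 after Benjamini-Hochberg adjustment over the 7 members. It was the 1 share to pass. It no longer passed without any 1 of the 3 control or the 3 ORX+DHT libraries, with adjusted exact p between 0.0563 and 0.0917, and passed without any 1 of the ORX libraries. With the replicate number as a block the exact permutation p was 0.0278, or 0.146 adjusted. The closest control and ORX libraries, replicate 3 of each with 6 reads, had shares of 0.00457% and 0.00526%. Fitted with no minimum level, ORX+DHT versus ORX had a log2 fold change of -1.43 (limma: SE 0.48, adjusted p = 0.160). In that fit groups did not overlap for 15.4% of genes.

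The developmental chains stayed scarce in every group. Myh8, the perinatal chain, had normalised counts of 37.5, 33.2 and 44.7 for control, 43.2, 27.3 and 46.3 for ORX and 31.4, 41.6 and 30.6 for ORX+DHT libraries. Myh3, the embryonic chain, had 12.5, 18.8 and 16.9 for control, 30.4, 21.3 and 16.5 for ORX and 21.3, 25.1 and 14.8 for ORX+DHT libraries. Both overlapped between all groups, and their log2 fold changes lay between -0.15 and 0.45 over the 3 comparisons with limma adjusted p of at least 0.756. As a share of the sum Myh3 was 0.0132% ± 0.00117 for control, 0.0211% ± 0.00464 for ORX and 0.0185% ± 0.00428 for ORX+DHT. The control and ORX shares did not overlap, and the 3-group exact permutation p was 0.118 (0.205 adjusted).

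Myh7b, the slow-tonic chain, had normalised counts of 8.74, 8.85 and 8.94 for control, 14.7, 15.4 and 16.5 for ORX and 11.1, 17.4 and 3.95 for ORX+DHT libraries. The 3 ORX libraries lay above the 3 control libraries, and ORX+DHT spanned both. The log2 fold change of ORX versus control was 0.75 (limma: SE 0.29, adjusted p = 0.669). None of the 6 members tested was called there, where 0.0579% of 8631 genes were. Myh7b was the 1 member with an unadjusted p under 0.05 and the 1 whose groups did not overlap, against 7.21% and 14.3% of all genes. edgeR and DESeq2 on the recovered reads called 0 members as well. For ORX+DHT versus ORX its log2 fold change was -0.68 (limma: SE 0.39, adjusted p = 0.465), which became -0.14 without ORX+DHT replicate 3 and -1.10 without ORX+DHT replicate 2.

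In ORX+DHT versus control 5 members reached the minimum level, and limma, edgeR and DESeq2 each called 0 of them. None had an unadjusted p under 0.05, against 0.0349% of 8595 genes called and 6.48% with such a p. Myh1 was the 1 member whose groups did not overlap, against 14% of genes. The median log2 fold change of the members tested was 0.096 in ORX versus control, -0.14 in ORX+DHT versus ORX and 0.049 in ORX+DHT versus control. The medians of all genes tested were -0.0077, 0.0062 and -0.0051.

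The other 7 class II heavy chain genes serve the heart, extraocular muscle, smooth muscle and the cytoskeleton. Of these, 5, 6 and 5 reached the minimum level in the 3 comparisons and none was called. The nearest was Myh14, a non-muscle chain, at 64.9, 115 and 117 for control, 107, 87.0 and 94.3 for ORX and 136, 119 and 136 for ORX+DHT libraries. Its log2 fold change in ORX+DHT versus ORX was 0.44 (limma: SE 0.12, adjusted p = 0.0554), with no overlap. Myh13, the extraocular chain at the end of the chromosome 11 cluster, had -0.081 there (limma: SE 0.22, adjusted p = 0.920). The 7 together summed to 328 to 638 normalised counts per library, against 94329 to 130455 for the 7 members.

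Genes of the sarcomere that work beside the heavy chains were read from lists chosen by role, with earlier results of these data known. Counts of called genes in these and the later lists are therefore descriptions only. In ORX versus control no gene of any list was called, where 0.0579% of all genes were. In ORX+DHT versus ORX, 1 of 10 tested partners of fast fibres rose, the fast troponin inhibitor Tnni2, with a log2 fold change of 0.39 (limma: SE 0.084, adjusted p = 0.0103). Of all 8770 genes tested there, 4.08% were called and 2.38% were called higher. The list had a median of 0.097, against 0.0062 for all genes. Tnni2 averaged 15621 ± 6994 normalised counts for control, 9719 ± 769 for ORX and 12696 ± 840 for ORX+DHT (SD, n = 3). Its ORX libraries lay below those of control, and its ORX+DHT libraries overlapped with control. The Tnni2 call was lost without ORX replicate 2 (adjusted p = 0.0649, limma), without ORX+DHT replicate 3 (0.0756) and with all 9 libraries in 1 fit (0.715). With quantile normalisation the log2 fold change was 0.21. The parvalbumin, calcium pump and alpha-actinin genes of that list did not pass.

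Of 8 tested partners of slow fibres, 1 rose and 1 fell in the same comparison, where 4.08% of all genes were called. The list median was -0.092. Mybpc1, a myosin-binding protein C named for slow muscle but also made in fast fibres, had 4762, 5211 and 5275 for control, 4498, 4440 and 4205 for ORX and 5837, 6341 and 6306 for ORX+DHT libraries. ORX+DHT libraries lay above all others and ORX below all others. Its log2 fold change was 0.49 (limma: SE 0.074, adjusted p = 0.000421), or 0.32 with quantile normalisation, and with all 9 libraries in 1 fit the adjusted p was 0.0542. Myl3, the slow and ventricular essential light chain, fell by 0.75 on the log2 scale (limma: SE 0.17, adjusted p = 0.0166), from 117, 183 and 153 to 104, 97.6 and 66.2 normalised counts. This call too was lost without ORX replicate 2 (adjusted p = 0.126, limma), without ORX+DHT replicate 3 (0.0756) and with all 9 libraries in 1 fit (0.353).

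Among 16 genes for myosin folding, the M-band and the thick filament, 3 rose and 1 fell, where 4.08% of all genes were called. The list median was 0.12. The M-band proteins Myom1 and Myom2, which link neighbouring thick filaments, had log2 fold changes of 0.45 (limma: SE 0.080, adjusted p = 0.00221) and 0.43 (limma: SE 0.078, adjusted p = 0.00250). With quantile normalisation they were 0.23 and 0.17, and the Myom2 call was lost (limma adjusted p = 0.125). With all 9 libraries in 1 fit both calls were lost (limma adjusted p = 0.189 and 0.111). Trim54, a muscle RING-finger protein, had 0.38 (limma adjusted p = 0.0343), a call lost with 5 of the 6 libraries left out in turn (adjusted p up to 0.134), with DESeq2 (0.119), with quantile normalisation (0.0836) and with all 9 libraries in 1 fit (0.362). Mybph, myosin-binding protein H, had 77.4, 34.3 and 113 for control, 265, 308 and 306 for ORX and 1.01, 6.77 and 0.988 for ORX+DHT libraries. No 2 groups overlapped. Its log2 fold change was -6.57 in ORX+DHT versus ORX (limma adjusted p = 7.32e-09), a size that depends on the pseudocount because the ORX+DHT libraries are near 0. Against control it was -4.44 (limma adjusted p = 0.0182), the 1 list gene called in that comparison. That call was lost without control replicate 3 (adjusted p = 0.122), without ORX+DHT replicate 1 (0.152) and without ORX+DHT replicate 3 (0.290). The myosin chaperone Unc45b and the methyltransferase Smyd1, which help the heavy chain fold and assemble, did not pass.

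Of 29 tested regulators of fibre type, 3 rose and 2 fell in ORX+DHT versus ORX, where 4.08% of all genes were called. The list median was 0.0012. The large Maf transcription factors Maf and Mafa, known as activators of the type IIb programme, both fell. Maf had 583, 428 and 440.0 for control, 458, 547 and 489.7 for ORX and 261, 322 and 297 for ORX+DHT libraries, and a log2 fold change of -0.76 (limma: SE 0.099, adjusted p = 8.42e-05). Mafa had 185, 125 and 142 for control, 164, 182 and 191 for ORX and 68.9, 112 and 66.2 for ORX+DHT libraries, and -1.15 (limma: SE 0.16, adjusted p = 0.000231). For both, the ORX+DHT libraries lay below all 6 others.

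The regulators that rose were Tbx15, a T-box factor of glycolytic fibres, Ppargc1a, a coactivator of mitochondrial genes, and Tead4, a partner of the Hippo pathway. Tbx15 had 643, 608 and 551 for control, 451, 461 and 497 for ORX and 691, 674 and 720.3 for ORX+DHT libraries, with ORX lowest and ORX+DHT highest and no overlap. Its log2 fold change in ORX+DHT versus ORX was 0.57 (limma: SE 0.081, adjusted p = 0.000250). Ppargc1a had 0.60 (limma: SE 0.13, adjusted p = 0.0130), and Tead4 had 1.29 (limma: SE 0.31, adjusted p = 0.0231) at 5.79 to 13.6 normalised counts in ORX and 19.3 to 25.3 in ORX+DHT. Leaving out 1 library ended the call on Ppargc1a without ORX+DHT replicate 1 (adjusted p = 0.0733, limma) or 2 (0.0564), and that on Tead4 with 4 of the 6 libraries (up to 0.131). Both were also lost with DESeq2 (adjusted p = 0.125 for Ppargc1a and 0.185 for Tead4) and with all 9 libraries in 1 fit (limma adjusted p = 0.481 and 0.258). Sox6, Eya1 and the Nfat and Mef2 genes did not pass. None of the 7, 7 and 5 genes of development and regeneration tested in the 3 comparisons, Myod1, Myf6 and Actc1 among them, passed, and 14 of the 15 listed were in both tables.

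**Figure D4:**
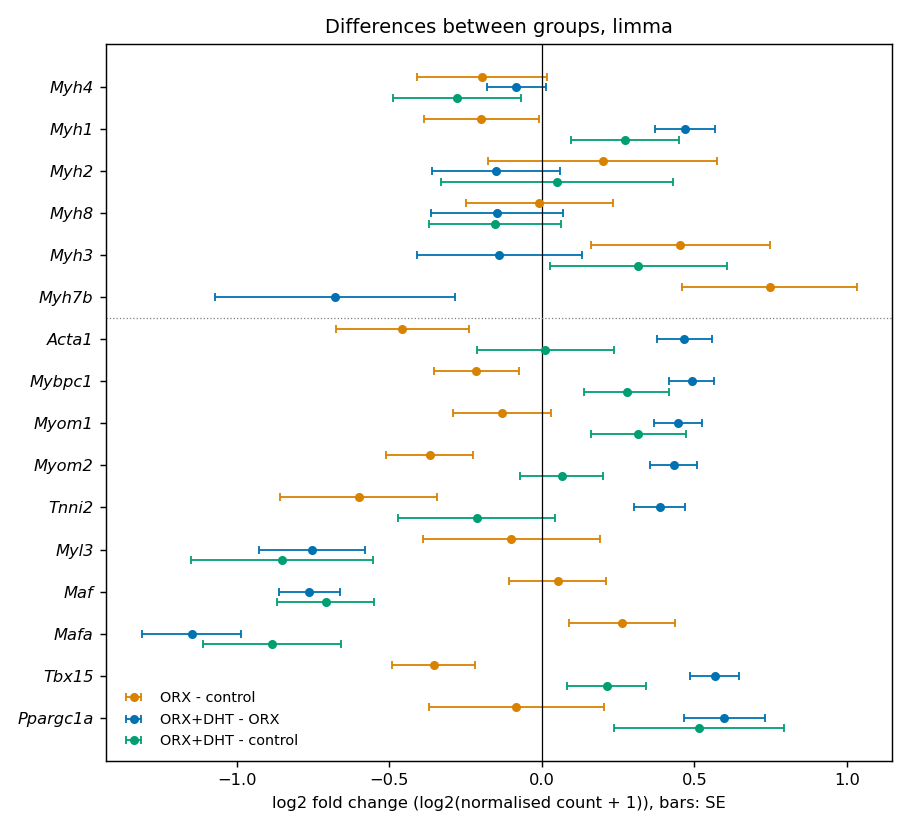
Log2 fold changes (x axis, on log2(normalised count + 1)) with SE for 6 heavy chain genes above the dotted line and 10 sarcomere or regulator genes below it, in the 3 comparisons (colours, n = 3 against 3). In ORX+DHT versus ORX, Myh1 at 0.47 lies beside Acta1, Mybpc1, Myom1 and Myom2, while Maf and Mafa lie at -0.76 and -1.15; Myh7b is not plotted for ORX+DHT versus control, where it was under the minimum level.

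Other genes changed in the comparison in which Myh1 rose. Of 5 general markers of skeletal muscle, 4 also rose in ORX+DHT versus ORX, where 2.38% of all genes were called higher. The median log2 fold change of the 5 was 0.29. Acta1, skeletal actin, had 0.47 (limma: SE 0.089, adjusted p = 0.00357) and Mb, myoglobin, 0.51 (limma: SE 0.071, adjusted p = 0.000200). Without ORX replicate 2 the adjusted p of Acta1 was 0.0524. Des and Myot had 0.28 and 0.29 (limma adjusted p = 0.0415 and 0.0312), calls lost with 5 and 4 of the 6 libraries left out in turn (up to 0.198 and 0.156). Ckm did not pass. Per library, the sum of the 5 ran from 84929 to 127638 normalised counts for control. It lay between 72174 and 74575 for ORX and between 88711 and 100271 for ORX+DHT. Acta1, Mb, Des and Myot were lower in all ORX than in all control libraries, without a call. Their ORX+DHT libraries overlapped with control. For Acta1 that overlap rested on control replicate 1, at 83697 against 56582 and 55204 in replicates 2 and 3. Myh1 instead overlapped between ORX and control, and its ORX+DHT libraries lay above control, again without a call. In ORX+DHT versus ORX the log2 fold changes of Myh1 and Acta1 were both 0.47. With quantile normalisation Myh1 had 0.22, Acta1 0.28, Mb 0.22 and Des 0.093. The calls on Des and Myot were lost there (limma adjusted p = 0.530 and 0.0790), and those on all 4 markers with all 9 libraries in 1 fit (limma adjusted p from 0.147 for Mb to 0.662 for Des).

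Of 4 fibroblast markers, 1 fell in the same comparison, where 4.08% of all genes were called in either direction. It was the collagen gene Col1a1, with a log2 fold change of -1.18 (limma: SE 0.11, adjusted p = 2.89e-06). Col3a1, also a collagen gene, had -0.46, Dcn -0.051 and Pdgfra 0.059 there (limma adjusted p = 0.0597, 0.933 and 0.966). The 4 markers summed to 1325 to 2654 for control, 2784 to 3739 for ORX and 1671 to 2365 for ORX+DHT. Their part in the Myh1 result was not tested. In bulk muscle, fewer fibres of a type and less RNA per fibre cannot be told apart, and this holds for every level given here. Markers of adipocytes, macrophages, Schwann cells, tendon, endothelium and smooth muscle had no called gene in the 3 comparisons.

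The genes whose levels followed each adult chain most closely over the 9 libraries were read from 3795 genes with a mean of at least 50, by Pearson's r of log2 values. These libraries share their groups and depths, so r is a description only. Nearest to Myh1 were Usp25, a deubiquitinating enzyme (r = 0.973), Myom1 (0.966) and the phosphatase gene Ptpn11 (0.961). Myom1 and Usp25 were also among the nearest 3 without control replicate 1. Nearest to Myh4 were Slco5a1 (0.952), Fam160a1 (0.947) and Klhdc10 (0.893), and nearest to Myh2 were Rbbp6 (0.926), Cnot2 (0.904) and Arrdc2 (0.898). Without control replicate 1, Slco5a1 was still among the nearest 3 to Myh4 and Rbbp6 among those to Myh2, and the other 4 were not. For Myh7 they were Canx (0.896), Kcnc4 (0.874) and Klhl33 (0.866), none of which was among the nearest 3 without control replicate 1. Kcnc4 encodes a voltage-gated potassium channel, and its counts were lowest in the ORX+DHT libraries, as those of Myh7 were.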

How the data were processed

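The authors deposited 2 tables of gene signal, read counts divided by a median-of-ratios factor per library, for control with ORX and for ORX with ORX+DHT. Per the submitters' processing notes, Trim Galore 0.6.7, HISAT2 2.2.1, featureCounts 2.0.1, DESeq2 1.36.0 and GRCm38 were used. Deposited values were whole multiples of 1 step per library (100% within 0.0001), so reads were recovered, at 1340209 to 1682235 per library. Columns headed sham were taken as control, by replicate number.

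The first 2 comparisons were fitted within their tables, and ORX+DHT against control on 14300 shared genes rescaled together. limma 3.58.1 in R 4.3.3 (eBayes with trend) was fitted on log2(value + 1), which understates changes of low genes, for genes of mean at least 10, with Benjamini-Hochberg adjustment over all genes and a threshold of 0.05. edgeR 4.0.16 and DESeq2 1.42.0 on the recovered reads were alternatives. Shares and ratios were tested by two-sided exact permutation. The fits were also run on simulated counts, drawn independently for each gene and library, and the outcome is not reported here. P-values measure the spread between these libraries. Members and lists were chosen with earlier results of these data known. The named genes were the 7 members, every list gene called, and the 3 genes most like Myh1, Myh2, Myh4 and Myh7; further list genes are named as examples. Values of 2 list genes are not reported here. Sequences came from RefSeq, where all 7 members matched.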

Additional observations from a re-analysis of the deposited data

How the results depend on the processing

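Over 10 alternatives that kept all libraries, the count of members called remained 0 in ORX versus control and in ORX+DHT versus control. In ORX+DHT versus ORX it was 1 in 8 of them and 0 with quantile normalisation and with all 9 libraries in 1 fit; the cause was not tested. The count of shares passing over the 3 groups, 1 as reported, was 3 with only the adult 4 in the sum, 0 with the replicate block and 0 to 2 when 1 library was left out. Signs changed for small differences. Quantile normalisation, which sets values by rank within a library, gave 0.18 for Myh1 and 0.21 for Myh4 in ORX versus control. It gave 0.14 for Myh4 in ORX+DHT versus control. edgeR and DESeq2 gave 0.022 and 0.013 for Myh8 in ORX versus control and -0.096 and -0.10 for Myh2 in ORX+DHT versus control. With 1 library left out, log2 fold changes ran from -0.13 to 0.72 for Myh2 and from -0.15 to 0.22 for Myh8 in ORX versus control, from -0.37 to 0.13 for Myh2 and from -0.34 to 0.084 for Myh3 in ORX+DHT versus ORX, and from -0.28 to 0.57 for Myh2 in ORX+DHT versus control. Share differences in points ran from -0.535 to 0.224 for Myh1 and from -0.943 to 0.503 for Myh4 in ORX versus control, and for Myh2 from -0.758 to 0.128 in ORX+DHT versus ORX and from -0.309 to 0.998 in ORX+DHT versus control. The log2 ratio of Myh1 to Myh4 ran from -0.046 to 0.033 in ORX versus control.

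Among the called list genes, 9 lost their call when 1 library was left out: Des and Trim54 with 5 of the 6 libraries, Myot and Tead4 with 4, Mybph versus control with 3, Tnni2, Myl3 and Ppargc1a with 2 and Acta1 with 1. With all 9 libraries in 1 fit, 13 called genes lost their call, Myh1 among them; Maf, Mafa, Tbx15, Mybph and Col1a1 did not. With quantile normalisation 5 did: Myh1, Myot, Des, Trim54 and Myom2. DESeq2 lost 3 (Tead4, Ppargc1a and Trim54), the fit with no minimum level 2 (Myot at an adjusted p of 0.0535 and Des at 0.0873), TMM scaling 1 (Des, 0.0534) and edgeR 1 (Des, 0.0506). Quantile normalisation also lowered Myom1, Mybpc1, Tnni2, Acta1 and Mb by over 1.5 times with the call unchanged.

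The replicate numbers are not stated to pair the libraries. Deviations of same-numbered ORX and ORX+DHT libraries correlated at 0.063, 0.061 and 0.15, each higher than with the other numbers, a hint from the data and not the design. With the replicate block the genes called in ORX+DHT versus ORX went from 358 to 571, and members called remained 1. In control versus ORX the same-numbered correlations were -0.16, 0.060 and -0.11. At this depth Myh7, on 1 to 12 reads per library, is the value counting error limits most. Myh7b rested on 4 to 20 reads per library.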
